A study of Homo sapiens with 12 samples.

Results

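Of 55765 gene symbols counted in SH-SY5Y cells, 87 were taken as the nuclear genes of the respiratory chain and of ATP synthase. They were chosen by symbol alone (NDUF followed by A, B, C, S or V and a number, UQCR, COX4 to COX8, ATP5, SDHA to SDHD, CYC1 and CYCS), with pseudogenes and antisense genes left out. By the usual assignment of these symbols, 36 belong to complex I, 4 to complex II, 9 to complex III, 18 to complex IV and 16 to complex V, and 1 is cytochrome c itself. NDUFA4 was counted with complex IV despite its symbol. COX7A2L, a respiratory supercomplex factor, was kept with complex IV by its symbol. The remaining 3 (ATP5S, ATP5SL and the read-through symbol ATP5J2-PTCD1) match the symbol rule without coding for a subunit of a complex and are given apart.

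SH-SY5Y is a human neuroblastoma line that stops dividing and extends neurites under all-trans retinoic acid (ATRA). All 12 libraries came from this 1 line after 7 days of ATRA, given as 10 μM in the methods. In the co-treatment experiment, 3 treated libraries came from cells that received H2O2 together with ATRA for the 7 days, and 3 control libraries from cells given ATRA without H2O2. In the pre-treatment experiment, 3 treated libraries came from cells exposed to H2O2 for 72 h before ATRA, and 3 control libraries from cells without that exposure. The H2O2 dose is written as 10 mM in the deposited design text and as 10 μM in the methods, so the dose is uncertain. The labels do not say that the replicates were separate cultures, so that p-values measure the spread between these libraries, which may be technical.

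Complexes I to IV of the mitochondrial inner membrane pass electrons from NADH and succinate to oxygen, and complex V uses the resulting proton gradient to make ATP. Some of the subunits of complexes I, III, IV and V are made from mitochondrial DNA, in complex III only MT-CYB. All other subunits, and the whole of complex II, are encoded in the nucleus. The nuclear genes are scattered over the chromosomes, many are short, and their promoters are known targets of nuclear respiratory factors and of YY1. Retinoic acid differentiation of neuroblastoma cells is accompanied by changes in mitochondrial metabolism, and the respiratory chain is both a source and a target of reactive oxygen species. The comparisons below ask whether H2O2 during or before differentiation was accompanied by other levels of these transcripts.

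The libraries held 27576276 to 98287391 reads on genes. The pre-treatment controls differed among themselves. Reads without a feature are those that the counting tool HTSeq assigned to no counted feature, and they may still lie within a gene. Control replicate 3 (control 3) had 0.200 of them for each counted read. Control replicates 1 and 2 (controls 1 and 2) had 0.800 and 0.830, and the treated libraries 0.343 to 0.462. Small structured RNA loci took 17.6% of the counts of control 3, against 1.59% and 2.88% in controls 1 and 2 and 13.3% to 15.1% in the treated libraries. The co-treatment libraries ranged from 0.263 to 0.429 reads without a feature for each counted read and from 5.04% to 13.0% of small structured RNA. In both measures controls 1 and 2 were outside the range of the other 10 libraries, and control 3 was at the other end of the range. The pre-treatment comparison is therefore given over all 6 libraries and without control 3, and values of single members without control 3 rest on controls 1 and 2 alone. The neuronal markers (5 genes) and the noradrenergic neuroblastoma markers (7 genes) all had counts in every group.

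The 87 symbols together took 0.590% to 0.750% of counted reads in the co-treatment libraries. In the pre-treatment experiment they took 0.541% and 0.500% in controls 1 and 2, 0.767% in control 3 and 0.677% to 0.695% in the treated libraries. Per kilobase of transcript, UQCRH (the hinge protein of complex III) had the highest level, at 409 ± 96.9 CPM per kb (SD over 12 libraries). CPM is the count scaled to the library size with TMM factors. COX6B1 followed at 300.2 ± 58.2 and COX7A2 at 299 CPM per kb, both small subunits of complex IV, then the catalytic β subunit of ATP synthase, ATP5B, at 293 and the α subunit ATP5A1 at 265. The SD of each over libraries was larger than the gaps between neighbours among the last 4. At the low end, COX7B2 had no count in any library, which allows a level of up to 0.109 CPM in the smallest library. For 1 symbol, ATP5J2-PTCD1, over 50% of exon bases are shared with other genes on the same strand, and for ATP5I and NDUFS7 over 50% are shared on the opposite strand, so that their counts are uncertain.

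In the co-treatment experiment, the respiratory chain genes stayed close to the controls. Of 87 members, 82 had enough counts to be tested with edgeR's quasi-likelihood test over 22089 genes, and 0 were called at an adjusted p below 0.05 (Benjamini-Hochberg), in which 0.335% of all genes were called higher and 0.263% lower. DESeq2, limma-voom and edgeR's exact test also called 0 members. At an unadjusted p below 0.05 there were 2 members, COX4I2 and UQCR11, where 8.15% of all genes reached that p. The median log2FC of the members was 0.05, with 53 above 0 (49.9% of all genes were above 0), against a median of -0.00 over all genes. Summed over all subunits, the control libraries reached 5721, 6865 and 7763 CPM and the treated libraries 7062, 7532 and 6787 CPM, so that the treated libraries lay within the range of the controls.

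UQCR11, a small subunit of complex III, had 58.2, 62.8 and 56.7 CPM in the co-treatment controls and 79.5, 90.7 and 67.0 CPM in the treated libraries. The groups did not overlap, and the log2FC was 0.42 ± 0.13 (SE) with an adjusted p of 0.335. COX4I2, the alternative form of subunit 4 of complex IV that is best known from lung and from low oxygen, had 1.86, 1.86 and 2.31 CPM in the controls and 1.23, 0.737 and 0.907 CPM in the treated libraries. Its groups did not overlap either, with a log2FC of -1.09 ± 0.30 and an adjusted p of 0.213. ATP5D, the δ subunit in the central stalk of ATP synthase, ranged from 18.4 to 41.2 CPM in the controls, with control 1 the highest, and had a log2FC of -0.29 (adjusted p = 0.843). Across all members, groups did not overlap for 4 that were higher and 1 that was lower with treatment, where 6.65% and 7.30% of all genes did so.

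In the pre-treatment experiment, the outcome depended on control 3. Over all 6 libraries, 86 members were tested among 24743 genes, and 0 were called by edgeR's quasi-likelihood test, DESeq2, limma-voom or the exact test, with 0.0242% of all genes called higher and 0.00% lower. At an unadjusted p below 0.05 there were 2 members, where 11.2% of all genes reached it, and the median log2FC was 0.18 with 75 members above 0, where 49.4% of all genes were above 0. These 2 were the low-level genes COX4I2 (log2FC = -1.70, adjusted p = 0.338) and COX6B2 (log2FC = 1.61, adjusted p = 0.400). Summed over all subunits, controls 1, 2 and 3 reached 4705, 4455 and 9062 CPM and the treated libraries 7194, 6821 and 6735 CPM. Control 3 was thus the highest of the 6 libraries, and controls 1 and 2 were the lowest.

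**Figure D1:**
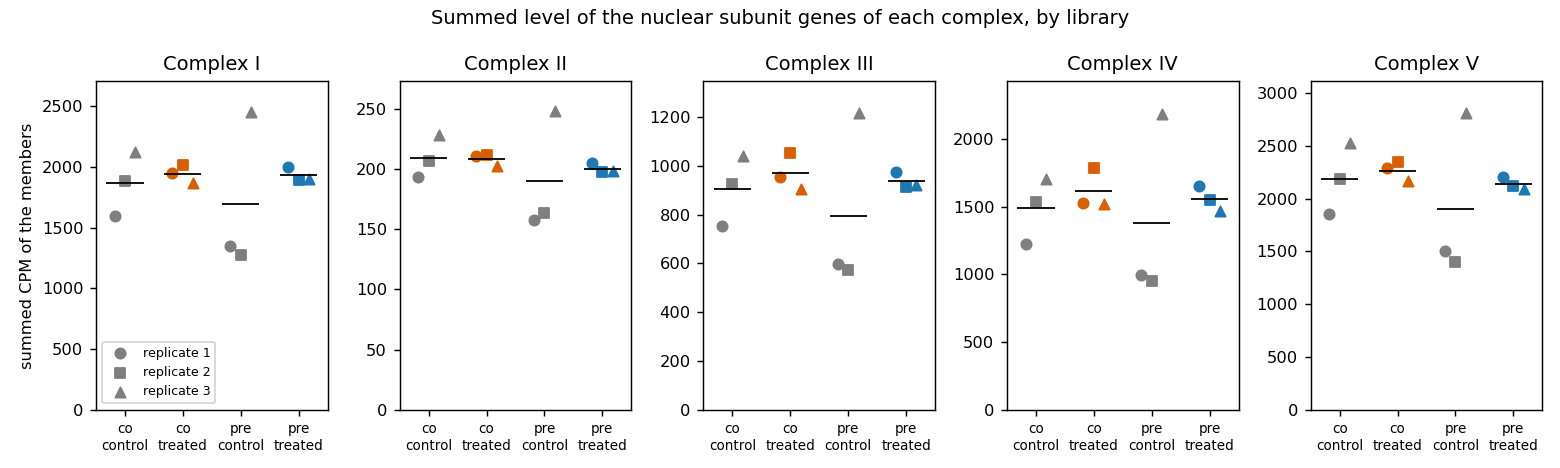
Summed CPM of the nuclear subunit genes of complexes I to V (y axes from 0) in each of the 12 libraries, by group (x axis); symbols mark the replicate number and black lines the group means. In each complex, pre-treatment controls 1 and 2 lay below the treated libraries and control 3 above them, while the co-treatment groups overlapped.

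Without control 3, most of the nuclear subunit genes were higher in the treated cells than in controls 1 and 2. Of 86 members tested over 26350 genes, 63 were called higher (73.3%) and 0 lower, where 13.2% of all genes were called higher and 12.8% lower. The median log2FC of the members was 0.60, with 80 above 0 (50.6% of all genes were above 0), against 0.01 over all genes. Groups did not overlap for 74 members with the treated libraries higher and for 2 with them lower, where 28.0% and 29.7% of all genes did so. Complexes I, III, IV and V had medians of 0.65, 0.54, 0.63 and 0.60, complex II one of 0.34, and the 3 symbols without a subunit one of 0.11. Over all 6 libraries the 63 members had log2FC from -0.10 to 0.46, with 62 above 0 and a median of 0.21, and adjusted p from 0.493 to 0.996. The 2 controls behind the 63 calls are those with the most reads without a feature and the least small structured RNA of all 12 libraries. The part of this in the calls was not tested. With a further library left out, 21 members were called without control 2, 34 without treated replicate 1, 39 without treated replicate 2, 50 without control 1 and 63 without treated replicate 3, all higher but COX4I2 without control 1. The calls over all genes were 6871 over the 5 libraries and 1677, 3235, 4021, 4450 and 8577 in the same order. In bulk RNA, a change in the number of cells of a type and a change in RNA per cell cannot be told apart.

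The 6 members with the smallest adjusted p belong to complexes III, IV and V. COX5B, a nuclear subunit of complex IV, lies on chromosome 2 (hg19, chr2:98262525-98264846, plus strand). It had 66.8 and 66.3 CPM in controls 1 and 2, 176 CPM in control 3, and 135, 143 and 131 CPM in the treated libraries. The treated libraries were all above controls 1 and 2 and all below control 3, and without control 3 the log2FC was 1.06 ± 0.11 (adjusted p = 0.00105). With control 3 it was 0.40 ± 0.37 (adjusted p = 0.698). UQCRQ, a small subunit of complex III (chr5:132202322-132204539, plus strand), had 58.0 and 59.7 CPM in controls 1 and 2, 160 CPM in control 3, and 115, 109 and 113 CPM in the treated libraries. This was a log2FC of 0.96 ± 0.11 without control 3 (adjusted p = 0.00123) and of 0.28 with it (adjusted p = 0.79).

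ATP5J2 and ATP5L encode the f and g subunits of the membrane part of ATP synthase. ATP5J2 had 36.1 and 33.6 CPM in controls 1 and 2, 89.5 CPM in control 3, and 76.0, 65.8 and 70.7 CPM in the treated libraries, with a log2FC of 1.05 ± 0.12 without control 3 (adjusted p = 0.00152). Its gene (chr7:99046098-99063809, minus strand) shares exons with the read-through symbol ATP5J2-PTCD1. ATP5L (chr11:118272061-118303993, plus strand) had 40.9 and 33.1 CPM in controls 1 and 2, 107 CPM in control 3, and 80.9, 78.3 and 75.0 CPM in the treated libraries. Its log2FC of 1.10 ± 0.13 (adjusted p = 0.00163) was the highest among the called members. UQCRH rose from 128 and 123 CPM to 238, 221 and 252 CPM (log2FC = 0.94, adjusted p = 0.00176), with 305 CPM in control 3. COX7C, a small subunit of complex IV, rose from 99.5 and 83.2 CPM to 163, 162 and 168 CPM (log2FC = 0.87, adjusted p = 0.00276), with 212 CPM in control 3. In all 6 genes, control 3 was above every treated library, and with it the log2FC was 0.42 for ATP5J2, 0.37 for ATP5L, 0.36 for UQCRH and 0.32 for COX7C, with adjusted p from 0.683 for ATP5J2 to 0.744 for ATP5L.

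**Figure D2:**
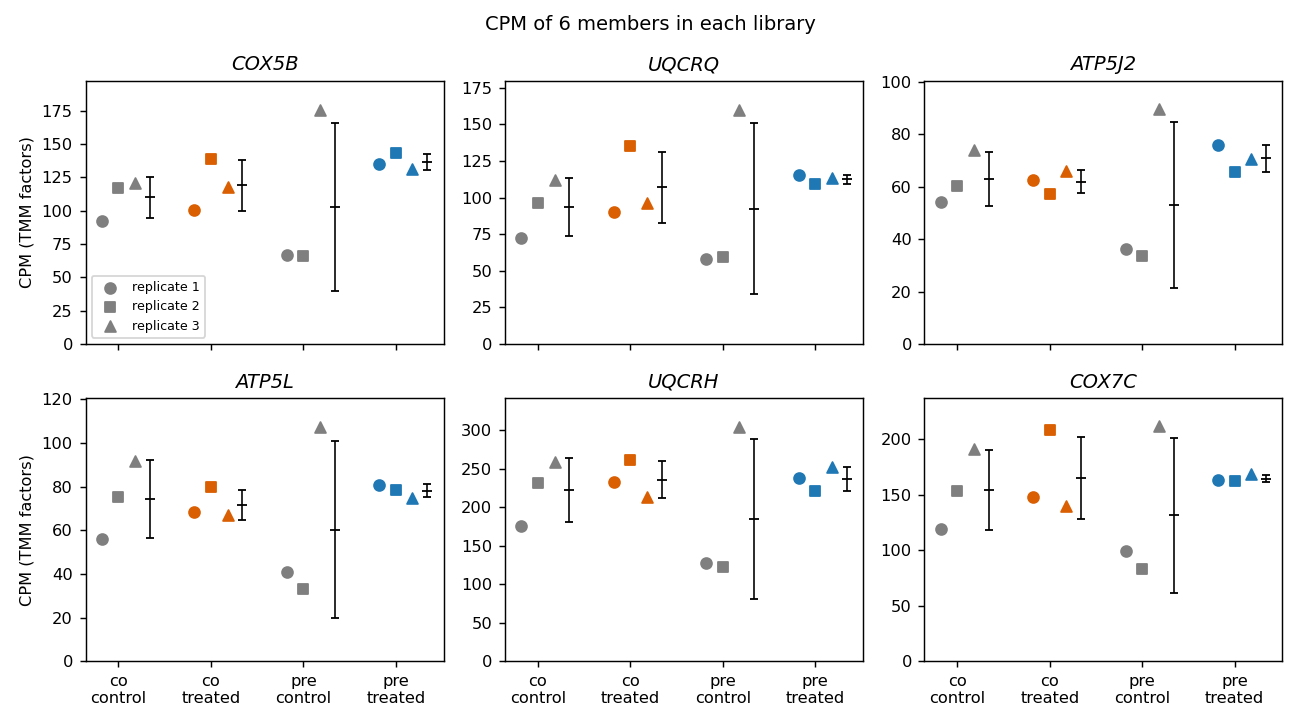
CPM (y axes from 0) of the 6 called members with the smallest adjusted p in the pre-treatment fit without control 3, in each library by group; symbols mark the replicate number, and the bars to the right of each group give the mean and SD of its 3 libraries. Control 3, the grey triangle of the pre-treatment controls, is above the treated libraries in all 6 panels, and the co-treatment groups overlap.

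In complex I, which takes electrons from NADH, 27 of 36 members were called higher without control 3, where 13.2% of all genes were. The log2FC ran from 0.01 to 0.83 over the 36. The highest was NDUFS6 (log2FC = 0.83, adjusted p = 0.00870), a subunit at the base of the NADH-oxidizing module. NDUFS3, a core subunit of the hydrophilic arm, had the smallest adjusted p of the complex (log2FC = 0.79, adjusted p = 0.00326). NDUFV1, which binds the flavin that accepts electrons from NADH, rose by a log2FC of 0.73 (adjusted p = 0.00440). Control 3 had 32.4, 70.7 and 125 CPM in NDUFS6, NDUFS3 and NDUFV1, above every treated library. With control 3 their adjusted p was 0.743, 0.750 and 0.640 (edgeR's quasi-likelihood test). The complex I members with the highest level per length, NDUFS5 and NDUFA1, were higher by 0.68 and 0.58 in log2FC without control 3 (adjusted p = 0.00693 and 0.0239). In control 3 they had 177 and 80.7 CPM, above every treated library. With control 3 the log2FC was 0.23 and 0.08 (adjusted p = 0.776 and 0.929). The 9 members that were not called included NDUFV2, a core subunit, at 3.85 to 7.37 CPM in this experiment.

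Complex II oxidizes succinate and is also an enzyme of the tricarboxylic acid cycle. Of its 4 members, 2 were called higher without control 3, where 13.2% of all genes were. SDHB, the iron-sulfur subunit, had 35.9 and 33.6 CPM in controls 1 and 2, 64.9 CPM in control 3 and 49.4, 48.0 and 48.3 CPM in the treated libraries (log2FC = 0.50, adjusted p = 0.0157). SDHD, a membrane anchor, had 36.9 and 30.7 CPM, 61.2 CPM, and 52.2, 51.4 and 47.1 CPM in the same order (log2FC = 0.59, adjusted p = 0.0145). The flavoprotein SDHA had 54.9 and 60.3 CPM in controls 1 and 2, 71.4 CPM in control 3, and 60.9, 59.1 and 68.4 CPM in the treated libraries. Treated and control libraries overlapped for SDHA (log2FC = 0.15, adjusted p = 0.384) and for the other anchor, SDHC (log2FC = 0.17, adjusted p = 0.434). A difference between these pairs of genes was not tested.

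Complex III passes electrons from ubiquinol to cytochrome c. In this complex 9 of 9 members were called higher without control 3, where 13.2% of all genes were. Their log2FC ran from 0.43 to 0.96. The lowest was CYC1, the heme subunit cytochrome c1, with 57.9 and 62.9 CPM in controls 1 and 2, 112 CPM in control 3, and 84.1, 80.8 and 75.8 CPM in the treated libraries (adjusted p = 0.0241). Cytochrome c (CYCS), the soluble carrier between complexes III and IV that also triggers apoptosis once released, had 103 and 85.0 CPM in controls 1 and 2, 149 CPM in control 3 and 154, 147 and 158 CPM in the treated libraries. CYCS was thus among the 6 members for which control 3 lay within the range of the treated libraries, and its log2FC was 0.72 ± 0.12 without control 3 (adjusted p = 0.00574) and 0.44 ± 0.22 with it (adjusted p = 0.500). In NDUFA5 control 3 lay just below the treated libraries, with 68.4 and 47.0 CPM in controls 1 and 2, 88.6 CPM in control 3 and 97.4, 90.5 and 93.5 CPM in the treated libraries. All treated libraries were above all 3 controls in NDUFA5 (log2FC = 0.46 over 6 libraries, adjusted p = 0.493), which held for 1 member only, where 8.24% of all genes did so.

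In complex IV, cytochrome c oxidase, 11 of 17 members tested were called higher without control 3, where 13.2% of all genes were. COX4I1, the common form of the regulatory subunit 4, had 123 and 129.9 CPM in controls 1 and 2, 284 CPM in control 3, and 219, 193 and 207 CPM in the treated libraries (log2FC = 0.73, adjusted p = 0.00423). Many subunits of this complex exist in a common form and in a form typical of muscle, testis or lung, and the common form prevailed in these cells. Per length, COX4I1 was 70.4 to 790.0 times as abundant as COX4I2 across the 12 libraries, COX6A1 was 218 to 2522 times as abundant as the muscle form COX6A2, and COX7A2 was 101 to 1040 times as abundant as the muscle form COX7A1. COX6B1 stood 298 to 2271 times above the testis form COX6B2, and COX8A 339 to 6483 times above COX8C. Since the rarer forms had few counts, the upper ends of these ranges are imprecise.

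The common forms of these pairs were all called higher without control 3, with log2FC of 0.73 for COX4I1, 0.59 for COX6A1, 0.62 for COX6B1, 0.85 for COX7A2, 0.68 for COX7B and 0.40 for COX8A. The rarer forms were not called. COX4I2 had 0.411 and 1.55 CPM in controls 1 and 2, 1.16 CPM in control 3, and 0.234, 0.476 and 0.255 CPM in the treated libraries. Its log2FC was -1.59 without control 3 (adjusted p = 0.0798), so that the fitted difference was negative in both experiments without passing the threshold in either. COX6B2 had 0.358, 0.238 and 0.297 CPM in the 3 controls and 0.925, 1.56 and 0.268 CPM in the treated libraries (log2FC = 1.62, adjusted p = 0.119).

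In complex V, ATP synthase, 13 of 16 members were called higher without control 3, where 13.2% of all genes were. The abundant α and β subunits, ATP5A1 and ATP5B, rose by 0.58 and 0.47 on the log2 scale (adjusted p = 0.0102 and 0.0172). ATP5A1 had 406 and 372 CPM in controls 1 and 2, 706 CPM in control 3, and 593, 568 and 553 CPM in the treated libraries. The rotor ring is built from subunit c, which is coded by ATP5G1, ATP5G2 and ATP5G3 as the same mature protein. All of these were called higher, with log2FC of 0.85, 0.66 and 0.81 (adjusted p = 0.00525, 0.00655 and 0.00339). Per length, ATP5G2 gave 43.2% to 53.8% of the subunit c transcripts in each library, ATP5G3 28.6% to 34.8% and ATP5G1 16.7% to 23.2%. The 3 members of the complex that were not called were ATP5D, ATP5J and the rare ATP5L2, and none of the 3 symbols without a subunit (ATP5S, ATP5SL and ATP5J2-PTCD1) was called (adjusted p from 0.114 to 0.643).

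**Figure D3:**
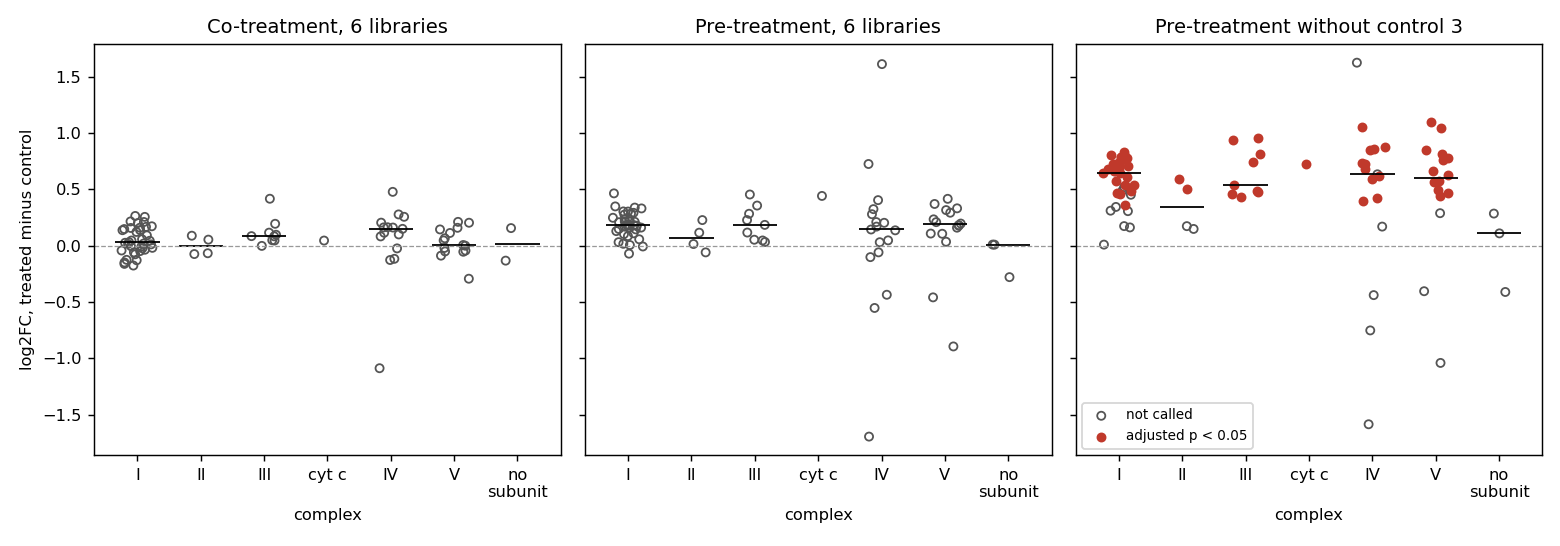
Difference between treated and control libraries (log2FC, y axis) of each member tested, by complex (x axis), for the co-treatment, the pre-treatment over 6 libraries and the pre-treatment without control 3; red points have an adjusted p below 0.05 in edgeR's quasi-likelihood test and black lines are medians. The 63 called members appear in the right panel only, all above 0.

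The makeup of the transcripts by complex varied within narrow ranges. Complex I members gave 26.5% to 28.4% of the summed counts of all members in each library, complex III 12.6% to 13.9%, complex IV 21.0% to 23.9% and complex V 30.4% to 32.3%. Complex II gave 3.32% and 3.63% in pre-treatment controls 1 and 2, against 2.72% in control 3 and 2.82% to 2.92% in the treated libraries. Without control 3, the mean share in the treated libraries minus that in the controls was -0.665 percentage points for complex I (pooled SD 0.20), -0.608 for II (0.13), 0.766 for III (0.12), 1.27 for IV (0.49) and -0.676 for V (0.25). Each of these differences was larger than its pooled SD, which rests on controls 1 and 2 and the treated libraries, and no test was run on them. Over all 6 libraries they were -0.144, -0.355, 0.550, 0.303 and -0.490 in the same order. The pooled SDs were then 0.66, 0.33, 0.29, 1.26 and 0.31, so that the differences for I and IV lay within the spread. In the co-treatment the differences had the same signs, at -0.307, -0.181, 0.282, 0.694 and -0.476 (pooled SD 0.36, 0.18, 0.27, 0.81 and 0.53). These shares do not depend on the scaling between libraries.

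Control 3 was the highest library for most members. Of the 86 members tested, control 3 was above every treated library in 76 and above controls 1 and 2 in 77. Of the 63 called without it, control 3 was above every treated library in 60, and above controls 1 and 2 in all 63. Control 3 was below both other controls in 4 members, among them NDUFV2, at 3.85 CPM against 5.02 and 6.61 CPM in controls 1 and 2. In the summed level the order was thus controls 1 and 2, then the treated libraries, then control 3.

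**Figure D4:**
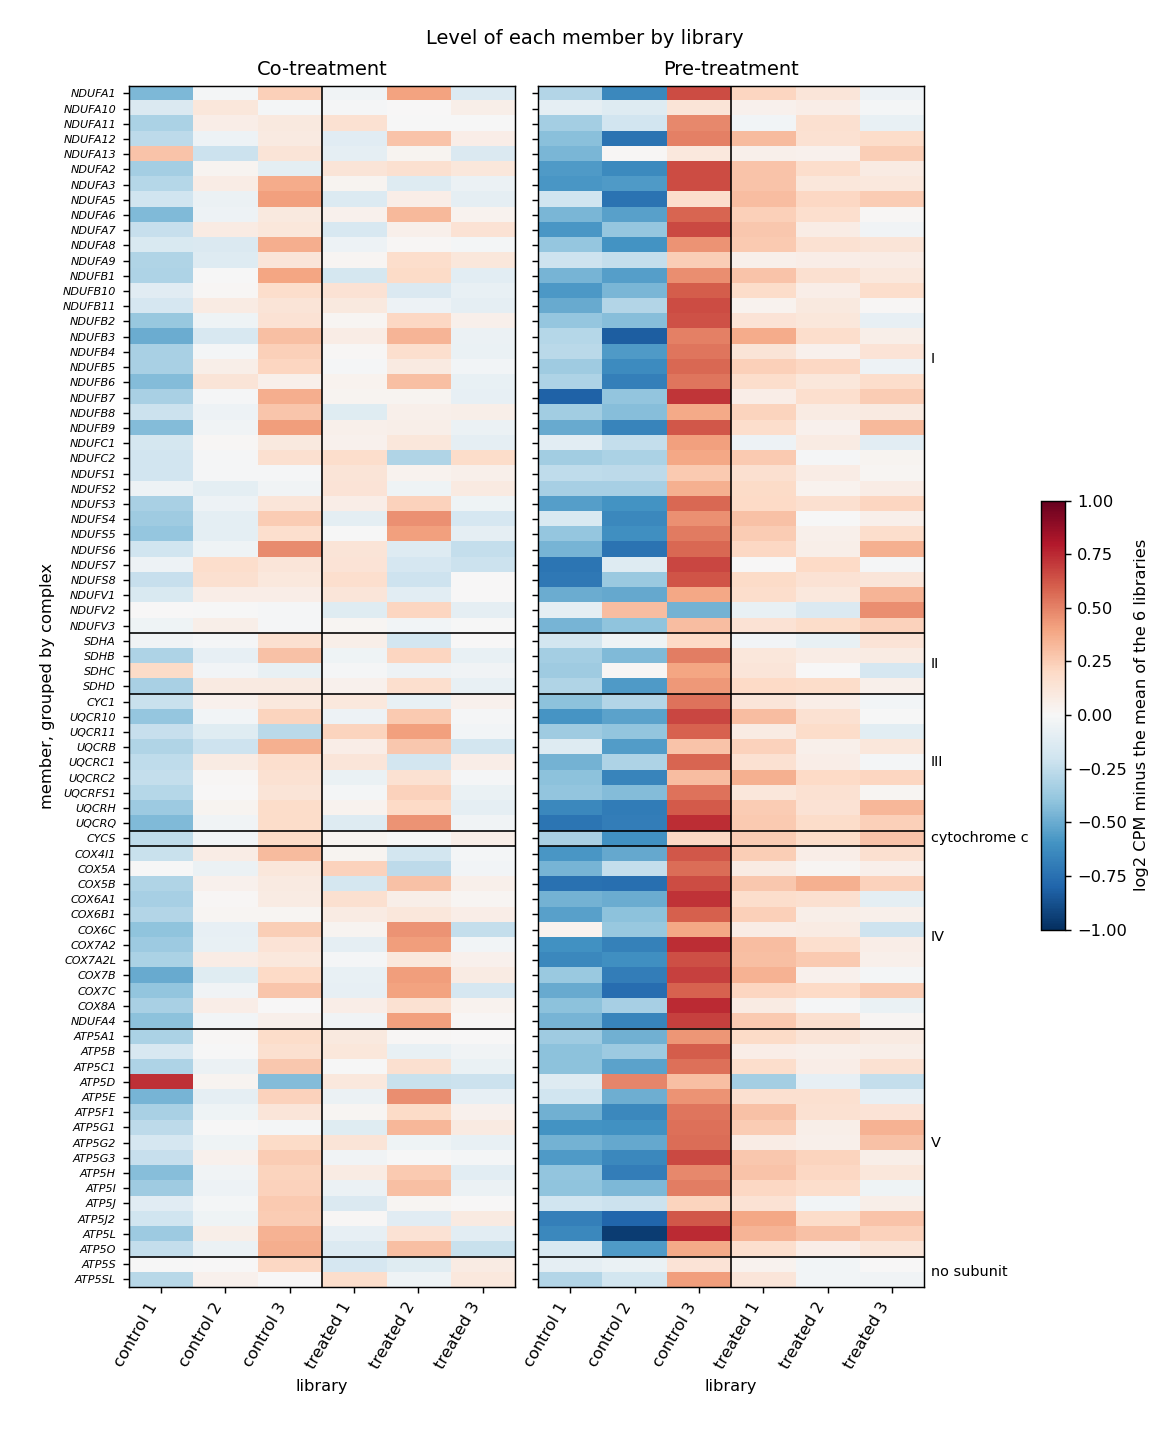
Level of the 79 members with at least 1 CPM in every library (rows, grouped by complex) in the 6 libraries of each experiment (columns), as log2 CPM minus the mean of those 6 libraries. Pre-treatment controls 1 and 2 are blue and control 3 is red for most rows, with ATP5D and NDUFV2 among the exceptions, while the co-treatment libraries show no division by treatment.

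The difference without control 3 went with transcript length across all genes. Other protein-coding genes with transcripts under 600 bases had a median log2FC of 0.61 and those of 4000 bases or more had -0.14, and 39.9% and 8.33% of them were called higher. The members are mostly short, with 31 of the 86 tested under 600 bases and 25 from 600 to under 1000 bases. Among transcripts under 600 bases, the members had a median log2FC of 0.63, close to the 0.61 of other genes, with 24 of 31 called. From 600 to under 1000 bases the medians were 0.59 and 0.50, from 1000 to under 2000 bases 0.50 and 0.33, and from 2000 to under 4000 bases, with 11 members, 0.54 and 0.15. The 2 members of 4000 bases or more had a median of 0.48. The members thus lay near other genes of like length among the shortest transcripts and above them among the longer ones, as a description of medians without a test. With small structured RNAs and mitochondrially encoded genes left out before scaling, 61 members were called, and with scaling by library size alone 35 were called. The part of transcript length and of the reads without a feature in the shift was not tested.

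**Figure D5:**
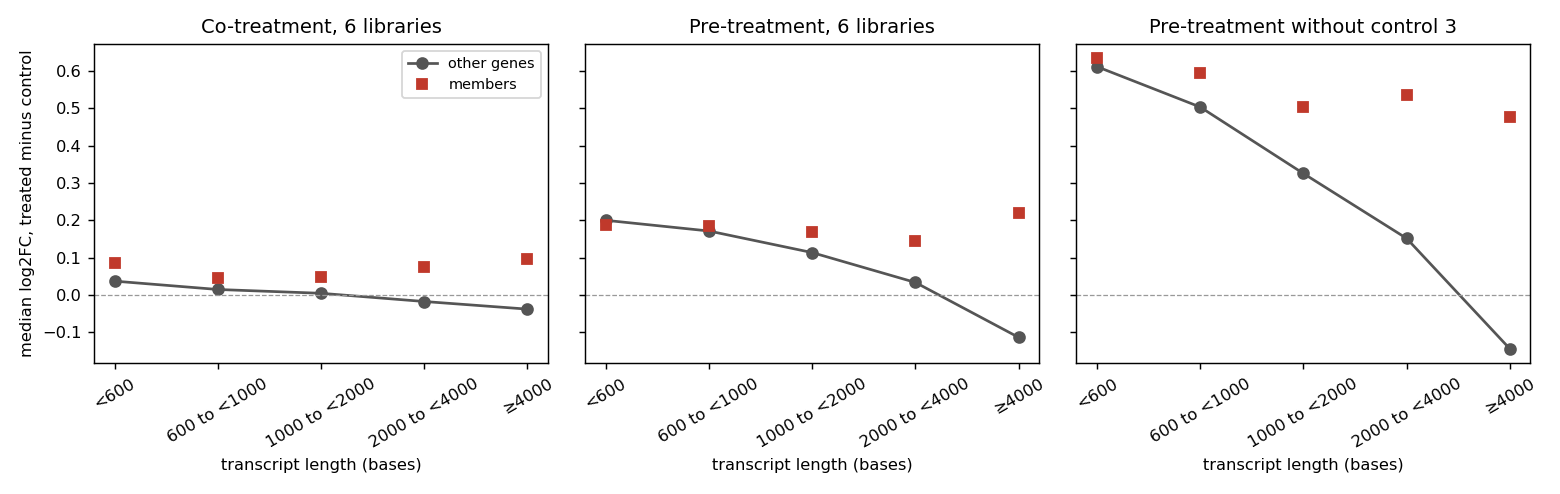
Median log2FC (y axis) of members (red squares) and of other protein-coding genes (grey circles) by transcript length in bases (x axis), in the 3 comparisons. Without control 3, the median of other genes fell from 0.61 under 600 bases to -0.14 at 4000 bases or more, while that of the members went from 0.63 to 0.48, the last class holding 2 members.

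Promoters of the members were searched for 3 motifs known from respiratory genes, and 4 are shown because these genes were called together without control 3 and hold such letters. The windows span 250 bases before to 50 bases after each start (RefSeq, GRCh38.p14), and 68 of the 87 members had one. The ETS core that GABP binds (CCGGAAG, both strands) was found in 19 of the 68 (27.9%), against 10.7% of all 27305 promoters. The NRF1 core (GCATGCG) was found in 14 (20.6%, against 4.13%), and the YY1 core (AAGATGG) in 16 (23.5%, against 6.06%). Among the 53 windows of members called without control 3, 17 held the ETS letters (32.1%), 12 the NRF1 letters (22.6%) and 12 the YY1 letters (22.6%), and among the 14 windows of members tested and not called 2 (14.3%), 2 (14.3%) and 4 (28.6%) did. The 3 strings do not contain each other, and these are matches of letters and not measured sites. The 250 bases before the start of COX5B (chr2:97645812-97646061), UQCRQ (chr5:132866392-132866641), UQCRH (chr1:46303448-46303697) and SDHD (chr11:112086623-112086872), all on the plus strand of GRCh38.p14, read as follows, with the ETS letters on either strand in capitals and, in COX5B and SDHD, also the NRF1 letters, which stand nearer the left end. In SDHD the NRF1 letters of both strands overlap in 1 run of capitals. A further ETS match of COX5B starts at base 246 of its window, runs past the printed bases and is not in capitals.
COX5B: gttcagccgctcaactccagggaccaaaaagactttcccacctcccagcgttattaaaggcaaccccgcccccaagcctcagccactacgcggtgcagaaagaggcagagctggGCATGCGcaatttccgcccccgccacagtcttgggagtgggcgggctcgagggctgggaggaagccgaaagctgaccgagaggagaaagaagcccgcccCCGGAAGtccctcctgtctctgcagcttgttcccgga
UQCRQ: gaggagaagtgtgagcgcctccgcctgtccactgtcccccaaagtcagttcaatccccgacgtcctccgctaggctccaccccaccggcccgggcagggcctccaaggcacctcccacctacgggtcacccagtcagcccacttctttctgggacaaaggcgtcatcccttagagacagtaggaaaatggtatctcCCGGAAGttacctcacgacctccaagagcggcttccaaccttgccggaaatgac
UQCRH: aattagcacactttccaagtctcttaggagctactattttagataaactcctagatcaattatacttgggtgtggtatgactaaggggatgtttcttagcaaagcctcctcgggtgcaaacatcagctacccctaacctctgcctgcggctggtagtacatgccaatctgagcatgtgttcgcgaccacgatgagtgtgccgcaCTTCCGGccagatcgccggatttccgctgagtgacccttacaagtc
SDHD: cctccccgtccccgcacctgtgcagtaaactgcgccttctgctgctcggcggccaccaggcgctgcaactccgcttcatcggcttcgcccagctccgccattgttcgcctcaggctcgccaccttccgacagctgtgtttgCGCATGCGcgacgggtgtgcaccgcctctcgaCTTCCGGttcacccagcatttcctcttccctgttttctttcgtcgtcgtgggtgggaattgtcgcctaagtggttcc

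The genes for NRF1 and GABPA themselves were not called. NRF1 had a log2FC of -0.00 without control 3 (adjusted p = 1.000) and GABPA one of 0.38 (adjusted p = 0.0554). Of the regulators, 0 were called in the co-treatment and over all 6 pre-treatment libraries. Of the 14 regulators of nuclear respiratory genes and of mitochondrial transcription, 4 were called higher and 1 lower without control 3. In that fit 13.2% of all genes were called higher and 12.8% lower. TFAM, which packages mitochondrial DNA and takes part in its transcription, was among those higher (log2FC = 0.58, adjusted p = 0.0241). Its level was 83.4 CPM in control 3, against a mean of 57.4 CPM in controls 1 and 2 and 84.4 CPM in the treated libraries.

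Of 44 assembly factors, the proteins that build the complexes without staying in them, 22 were called higher and 0 lower without control 3 (median log2FC = 0.42). In that fit 13.2% of all genes were called higher and 12.8% lower. COA4, a factor of complex IV assembly, had a log2FC of 1.01 (adjusted p = 0.00362). ATPIF1, the inhibitor that binds ATP synthase, was called higher (log2FC = 0.63, adjusted p = 0.0137). Of 4 further nuclear subunits whose symbols the rule does not take, 3 were called higher: NDUFAB1 (0.59), USMG5 (0.68) and C14orf2 (0.72). Of 13 tricarboxylic acid cycle genes, 6 were called higher and 2 lower, against the same 13.2% and 12.8% of all genes. The 2 lower were citrate synthase CS (log2FC = -0.48) and OGDH (log2FC = -0.49). In none of these lists was a gene called in the co-treatment or over all 6 pre-treatment libraries.

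The subunits encoded in mitochondrial DNA went another way than their nuclear partners. Without control 3, 7 of the 13 were called lower and 1 higher, with a median log2FC of -0.76 against 0.60 for the nuclear members. Of all genes, 12.8% were called lower and 13.2% higher in that fit. MT-CYB, the mitochondrial partner of the complex III genes above, had a log2FC of -1.89 (adjusted p = 0.00201) and MT-CO1, the catalytic subunit of complex IV, one of -0.88 (adjusted p = 0.00509). MT-ND6 was the only one called higher (log2FC = 1.09, adjusted p = 0.00395), and its gene alone among these lies on the other strand of mitochondrial DNA. In the co-treatment and over all 6 pre-treatment libraries 0 of the 13 were called. Mitochondrial genes took 0.788% and 0.967% of counts in controls 1 and 2, 0.372% in control 3 and 0.477% to 0.548% in the treated libraries.

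Some markers of the cell states that this line can hold were also called. Of 8 mesenchymal markers, 6 were tested in the co-treatment, 6 over all 6 pre-treatment libraries and 7 without control 3. In the same order 1, 1 and 3 were called higher (VIM, YAP1 and CD44 without control 3), and 0 lower. Of all genes, 0.335%, 0.0242% and 13.2% were called higher in these fits, and 12.8% lower without control 3. The summed level of the 8 mesenchymal markers was 115 to 296 CPM (by library size alone) in the pre-treatment controls. It was 135 to 188 CPM in the treated libraries, so that the groups overlapped in this sum. PRRX1 had 0 counts in the controls. FN1 had the most counts of the 8 in every library, and its groups overlapped. Without scaling to library size, VIM had 169, 185 and 328 counts in controls 1 to 3. The treated libraries had 2202, 1322 and 1731. YAP1 had 3, 4 and 4 against 93, 14 and 46, and CD44 79, 44 and 53 against 287, 174 and 152. COL1A1 and SNAI2 counts overlapped between the groups. Of 7 noradrenergic markers, 6 were tested without control 3, and 3 were called lower (PHOX2A, GATA3 and DBH) and 1 higher (ISL1). The summed levels of the 7 were 1248 to 2424 CPM in the controls and 953 to 1357 CPM in the treated libraries. Of 5 neuronal markers, 1 was called lower without control 3 (MAPT), where 12.8% of all genes were. The summed levels of the 5 were 1364 to 1682 CPM in the controls and 1112 to 1282 CPM in the treated libraries. Over all 6 libraries 0 noradrenergic and 0 neuronal markers were called. The part of cell state in the levels of the respiratory genes was not tested.

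Whether the responses differed between the experiments was tested in 1 fit with a term for treatment within experiment (the interaction). Over all 12 libraries 0 of 85 members were called by edgeR's quasi-likelihood test, and 0 reached an unadjusted p below 0.05, where 8.94% of all genes did so and 0.0246% were called higher. Without control 3, over 11 libraries, 13 of 85 members were called with a higher log2FC in the pre-treatment experiment and 0 with a lower one, where 3.32% of all genes were called higher and 4.70% lower. ATP5J2 (difference in log2FC = 1.01, adjusted p = 0.0115), ATP5L (1.10, adjusted p = 0.0176), COX5B (0.89, adjusted p = 0.0205) and ATP5G3 (0.81, adjusted p = 0.0212) had the smallest adjusted p. COX4I1 (0.80, adjusted p = 0.0298) and NDUFV3 (0.60, adjusted p = 0.0301), an accessory subunit of the NADH-oxidizing module of complex I, followed. This number changed with single libraries. It was 0 without pre-treatment control 2, 1 when co-treatment treated replicate 3 was left out, 3 without pre-treatment treated replicate 1, and 4 without either co-treatment control replicate 2 or 3. It was 6 without pre-treatment treated replicate 2, 7 without pre-treatment control 1, and 43 without co-treatment control replicate 1. It was 10, 15 and 12 without co-treatment treated replicate 2, co-treatment treated replicate 1 and pre-treatment treated replicate 3. The calls over all genes moved with it, from 2058 over the 11 libraries to 321 without pre-treatment control 2 and 4499 without co-treatment control replicate 1.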

How the data were processed

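RNA was sequenced, after removal of ribosomal RNA, from 12 SH-SY5Y libraries in 4 groups of 3 with a stranded kit. According to the labels and the methods, the authors trimmed reads with Cutadapt 2.10, mapped them to hg19 with HISAT2 2.1.0, checked quality with FastQC 0.11.8 and counted reads per gene with HTSeq 0.7.2. The counts were deposited by the authors for each library without normalization, with 5 closing entries for reads not counted on a gene (40.0% to 59.9% of all entries summed), which were left out. The strand setting and the annotation version are not given in the sources used here. The deposited tables of the authors' own comparisons (log2 fold changes, p-values) were not used.

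The members, gene lists and tests were chosen with earlier results of these data known. All 87 symbols were matched to GENCODE v44 lifted to hg19, 19 of them through an older symbol, for positions and the median length of coding transcripts. A gene was tested where at least as many libraries as the smallest group holds had a CPM no lower than 5 counts would give in the smallest library. Counts were scaled by TMM and compared with the quasi-likelihood test of edgeR 4.0.16 (limma 3.58.1, R 4.3.3) over all such genes, with Benjamini-Hochberg adjustment, at an adjusted p below 0.05. The fits were also run on simulated counts drawn from common gene levels with some genes changed. No simulated library stood apart, so these runs do not bear on the place of control 3. Named genes were the members called in a comparison (where more than 10, the 6 with the smallest adjusted p among those whose groups do not overlap), the 2 members of each complex with the highest level per length, the 2 with the highest and lowest log2FC of each comparison, CYCS, CYC1, SDHA to SDHD, the subunit c genes, the paralog pairs of complex IV and the symbols without a subunit. NDUFS6, NDUFS3, NDUFV1, NDUFV2 and the named genes of other lists were chosen after their values were seen, as were the classes of transcript length and the measure of shared exons. Alternatives were other scaling factors, other filters, DESeq2 1.42.0, limma-voom, edgeR's exact test, a fold threshold, a replicate block and each library left out in turn. Depth was 27576276 to 98287391 counted reads per library, and the floor of 3 counts covers counting error only.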

Additional observations from a re-analysis of the deposited data

Results flagged for a closer look

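The difference in log2FC between the pre-treatment and the co-treatment experiment passed the test of the interaction in 13 members over the 11 libraries without control 3. The differences were 1.01 for ATP5J2, 1.10 for ATP5L, 0.89 for COX5B, 0.81 for ATP5G3, 0.80 for COX4I1, 0.60 for NDUFV3, 0.67 for NDUFV1, 0.80 for UQCRH, 0.72 for COX7A2L, 0.84 for NDUFA3, 0.71 for UQCRC2, 0.67 for NDUFB10 and 0.95 for NDUFS6, with adjusted p from 0.0115 to 0.0407 (edgeR's quasi-likelihood test). Over all 12 libraries the differences in these members were 0.19 to 0.47, with adjusted p from 0.676 to 0.904. With 1 more library left out, 0 (without pre-treatment control 2) to 43 members (without co-treatment control 1) passed. The groups hold 3 samples each, except that over the 11 libraries the pre-treatment controls are controls 1 and 2 only. Single samples were therefore not tested as outliers within them.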

How the results depend on the processing

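In the co-treatment, 0 members were called under all 17 alternatives, and each library left out in turn is among them. In the pre-treatment over 6 libraries the count was 0 under 16 alternatives and 63 without control 3, and the median log2FC ranged from 0.00875 to 0.604 with 1 library left out. Over the 5 libraries without control 3, 63 members were called, against 35 with scaling by library size only and 3 with an absolute log2FC above 1 also required. Leaving out 1 more library gave 21 (without control 2), 34 (without treated 1), 39 (without treated 2), 50 (without control 1, with COX4I2 lower) and 63 members (without treated 3), and 21 members were called in every such fit. Without control 1 or 2 a single control is left, which is assumed to vary like the treated samples. The median log2FC there was 0.60, against 0.38 with library size only and 0.49 with upper-quartile factors, where the median over all genes moved alike from 0.01 to -0.21 and -0.10, and it was 0.55 to 0.68 with 1 library left out. By library size only, SDHA (-0.0685) and SDHC (-0.0457) were also below 0, so that the sign of both depends on the scaling. The change in share of complex II was -0.608 percentage points and ranged from -0.762 to -0.454 with 1 library left out, and that of complex V was -0.676 and became -0.972 without symbols that are no subunit and members that share exons with a read-through gene. In the co-treatment the log2FC of ATP5D became 0.0766 without control 1 (range -0.525 to 0.0766). For the difference between experiments, 0 members were called over 12 libraries and 13 without pre-treatment control 3. Over 11 libraries the 13 became 4 with library size only, 20 with small structured RNAs and mitochondrial genes left out, 26 with no filter on low counts, 20 with DESeq2, and 0 to 43 with 1 library left out. The cause of these changes with the processing was not tested. With a replicate block, 0 members were called in the co-treatment, 0 over 6 and 71 over 5 pre-treatment libraries, 0 over 12 and 11 over 11 libraries of both experiments; the 71 hold all 63 and 8 more. The labels say of these numbers only that they are replicates. Residual correlations of libraries with the same number were -0.0733 to -0.0626 in the co-treatment, -0.279 to 0.0295 over 6 and -0.00274 and 0.0695 over 5 pre-treatment libraries, and 0 of 6 co-treatment and 1 of 6 pre-treatment libraries correlated best with their own number, so the samples were treated as unpaired. Depth limits the tissue-specific forms, which had few counts.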
